A study of Sus scrofa with 5 samples.

Results

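The miRNAs of exosomes from semen were set against those of exosomes from bile, a pair of fluids produced by glands and ducts. Both fluids were taken on postnatal day 180 from pigs of the Chinese breed Rongchang, with no treatment named in the labels, and each was sequenced as 1 library of a series of 5 libraries. The labels do not say how many animals stand behind a library or whether semen and bile share donors, so pooling is unknown, and so is the sex of the pigs that gave bile. The set holds every mature miRNA with at least 100 reads counted in semen or in bile, the pair of libraries with the most miRNA reads, and by that rule 138 of the 411 names in the deposited tables were members. Exosomes are small vesicles released by cells, and small RNA was taken from them.

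A miRNA is cut from a hairpin precursor that can yield a product from each of its arms, written 5p and 3p, and one arm is usually kept while the other is mostly degraded. The mature strand guides the silencing of mRNAs through its seed, the bases near its 5′ end. Semen combines sperm with fluids of the testis, the epididymis and the accessory sex glands, whereas bile is secreted by hepatocytes and modified by the epithelium of the bile ducts and the gallbladder, whose walls hold smooth muscle and connective tissue. Vesicles in each fluid can derive from any of these cells, and the share of a given source was not measured here.

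The semen library held 2284926 miRNA counts and the bile library 1673239. Levels are given as CPM, counts scaled to a library total of 1000000 summed miRNA counts. No deposited count lay between 0 and 10, so a listed 0 is read as under 10 counts, which is 4.38 CPM in semen and 5.98 CPM in bile, and a ratio against a listed 0 is a bound computed with 10 counts. Of the 138 members, 115 were listed above 0 in both libraries, 16 were listed at 0 in semen and 7 at 0 in bile. The members took 99.9% of the counts in either library. With 1 library a side there is no replicate check: every value below describes these libraries, and the 95% intervals cover counting error only.

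Both fluids were led by the same miRNA but differed in most of what followed. miR-148a-3p, abundant in liver and in other secretory tissue, had 1206850 counts in semen and 536641 in bile, or 52.8% of semen counts and 32.1% of bile counts. That 1 name therefore made up more than all others together in semen, while 3 names were needed to reach the same point in bile. To reach 90% of the counts took 11 names in semen and 14 in bile. The top 10 lists shared 5 names, which were miR-148a-3p, miR-21, miR-99a, let-7i and let-7f, and the 15 names of both lists together held 91.1% of semen and 89.8% of bile counts. If each miRNA's smaller share is added up, the libraries had 60.4% of their composition in common, and 47.2% with miR-148a-3p set aside.

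**Figure D1:**
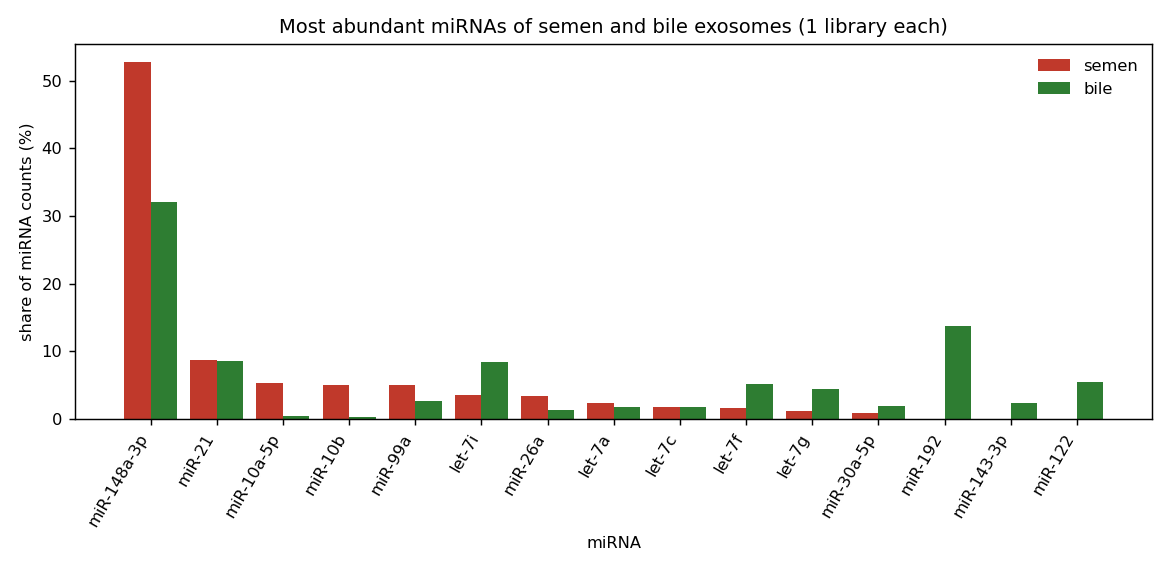
Share of the miRNA counts (%, vertical axis) taken by each of the 15 miRNAs that stood in the top 10 of semen (red bars) or bile (green bars), 1 library each. miR-148a-3p led both, at 52.8% in semen and 32.1% in bile, miR-21 was level, and the bars of miR-192, miR-143-3p and miR-122 are visible in bile alone.

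miR-21, found in most epithelia, was second in semen with 86877 CPM and the third in bile with 85605 CPM, a semen-over-bile ratio of 1.015 (95% interval 1.008 to 1.022). let-7c was as even, at 17603 CPM in semen and 17556 CPM in bile (ratio 1.003, 0.988 to 1.018). So were miR-378, with 737 CPM in semen against 745 in bile (0.990, 0.919 to 1.066), and miR-151-3p, with 6851 against 6458 CPM (1.061, 1.035 to 1.087). Together with miR-30e-3p, at 738 CPM in semen and 852 CPM in bile (0.867, 0.807 to 0.931), these were the 5 members nearest to a ratio of 1 among those with at least 1000 counts in both libraries. By rank these 5 ran from 2 to 40 in semen and from 3 to 50 in bile.

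Of the 138 members, 88 had 100 counts or more in both libraries, 23 in semen only and 27 in bile only. Most members were not even. Of the 138, 98 (71% of the members) differed by 2-fold or more, 46 (33.3%) being higher in semen and 52 (37.7%) higher in bile, and 40 lay within 2-fold. At 4-fold or more there were 66 members (47.8%), 33 (23.9%) on each side. Members that reached 100 counts in 1 library alone are part of all these counts, and their side was largely fixed by the rule of membership. The counts over the 88 members alone were not computed. Semen held 46.9% of the members that differed 2-fold, but 58.8% when totals were taken without miR-148a-3p. Bounds included, 27 members were 10-fold or more higher in bile and 15 in semen, and 8 were 100-fold or more higher in bile and 0 in semen. Of these, only miR-100, miR-146a-5p and miR-192 on the bile side had 100 counts or more in both libraries. On the semen side only miR-10a-5p, miR-10b, miR-135, miR-148a-5p and miR-210 did. The rest were members through the library where they were high, so these numbers are no result about a lean to either fluid. The median log2 ratio of semen over bile was -0.13. Members 2-fold higher in semen took 18.2% of semen and 3.13% of bile counts, those 2-fold higher in bile took 7.91% of semen and 47.1% of bile counts, and those within 2-fold took 73.8% of semen and 49.7% of bile counts. Across the 115 members above 0 in both libraries, Spearman's rho of the counts was 0.55, a description over miRNAs that share the 2 libraries.

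The way totals are taken moves every ratio by the same factor. Relative to CPM, the log2 ratio shifted towards semen by 0.53 with totals without miR-148a-3p and by 0.42 on the authors' normalized scale, and towards bile by 0.07 with TMM library sizes, a trimmed mean over the miRNAs (a log2 shift of -0.07). With the first or the second of these, 12 members changed the side on which they were higher, and with TMM 4 did. None of the members that differed by 2-fold changed sides.

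**Figure D2:**
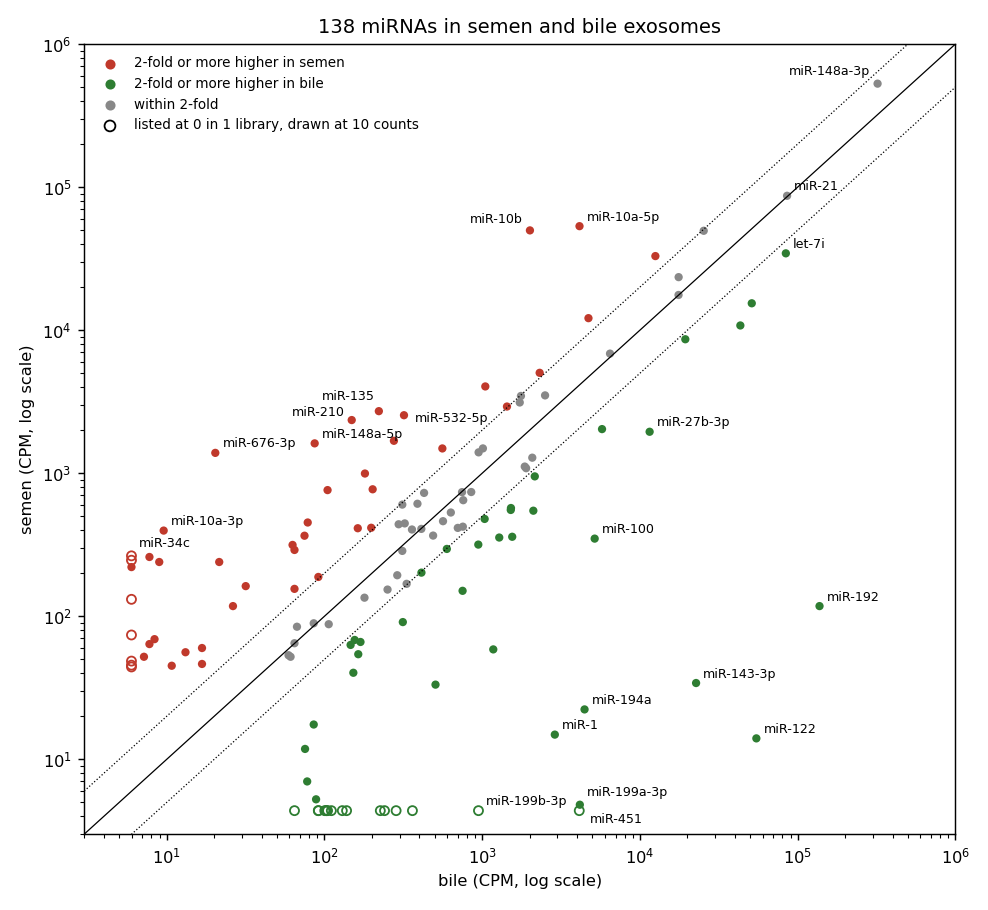
CPM of the 138 members in semen (vertical axis, log scale) against bile (horizontal axis, log scale). Points are miRNAs, coloured red or green at 2-fold or more, open where 1 library lists 0 and the value is drawn at 10 counts; the solid line marks equal CPM and dotted lines 2-fold. The cloud is wide at low CPM, and miR-122, miR-192 and miR-143-3p lie far below the line while miR-10a-5p and miR-10b lie far above it.

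With a listed 0 read as 10 counts, the widest differences were those of miR-122 and miR-192. The ratio of miR-451, listed at 0 in semen, was a bound of at least 942 times and cannot be ranked against that of miR-192. miR-122, the hallmark miRNA of hepatocytes, where it acts in lipid metabolism, had 32 counts in semen and 91481 in bile (14.0 against 54673 CPM), so that its bile level was 3904 times its semen level (2765 to 5708). It ranked 140 in semen and 5 in bile. miR-192, made in the epithelium of liver, gut and kidney, had 269 counts in semen and 229971 in bile (118 against 137441 CPM), a bile level 1167 times that of semen (1036 to 1321). Its neighbour in the genome, miR-194a, had 51 counts in semen and 7450 in bile (22.3 against 4452 CPM, 199.5 times, 152 to 268). miR-215, whose sequence is close to that of miR-192, was listed at 0 in semen and with 476 counts in bile, a bile level at least 65.0 times higher (35.0 at the lower end of the interval). miR-192 and miR-215 were higher in bile by 1170 times when summed, so a mix-up of their reads would leave this unchanged.

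miR-122, miR-194a, miR-215 and miR-455-5p reached the minimum of 100 counts in bile alone, so a high bile level was a condition of their membership. The hepatocyte list was mixed, with 3 of 5 members 2-fold higher in bile and 1 in semen (median log2 ratio -1.50, beside -0.13 over all members), shares to be read against 37.7% and 33.3% of all members. With totals without miR-148a-3p the list had 2 members on each side. miR-101 had 4645 counts in semen and 9615 in bile (2033 against 5746 CPM, 2.83 times higher in bile, 2.73 to 2.93). miR-455-5p was listed at 0 in semen and had 153 counts in bile, at least 20.9 times higher (lower end 11.1). The arms of miR-148a, counted in the same list, went the other way, and because miR-148a-3p dominates both libraries the list's sum was higher in semen, at 53.2% against 38.1% of the counts. Without miR-148a, the 3 remaining members summed to 0.205% of semen and 6.05% of bile counts, 29.6 times higher in bile (28.7 to 30.4). miR-122, a member through bile alone, made up most of that bile sum. miR-885-5p, another liver miRNA, was below the minimum for membership, with 0 counts listed in semen and 18 in bile.

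miRNAs of smooth muscle and connective tissue formed the next group that was high in bile. miR-143-3p, which keeps smooth muscle cells in their contractile state together with miR-145, had 78 counts in semen and 37946 in bile (34.1 against 22678 CPM), 664 times higher in bile (532 to 841), and ranked 9 there. Both arms of miR-145 were listed at 0 in semen, while in bile miR-145-3p had 217 counts (at least 29.6 times higher, lower end 15.8) and miR-145-5p 175 (at least 23.9 times, lower end 12.7). Within bile, miR-143-3p exceeded each arm of miR-145 by more than 100-fold.

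The miR-199 and miR-214 miRNAs of fibroblasts and other mesenchymal cells were at 11 counts or fewer in semen. miR-199a-3p had 11 counts in semen and 6954 in bile (4.81 against 4156 CPM, 863 times higher in bile, 482 to 1730). miR-199b-3p, nearly identical to it, was listed at 0 in semen and had 1584 counts in bile, at least 216 times higher (lower end 117). Summed, these names had 11 counts in semen and 8538 in bile, 1060 times higher in bile (592 to 2124), a value that does not depend on how reads were divided between them. The 5p arms and miR-214 were listed at 0 in semen, with bile counts of 604 for miR-199a-5p, 378 for miR-199b-5p and 153 for miR-214. The 5 members of this list and the 3 of the smooth muscle list reached the minimum of 100 counts in bile alone, so that their side was largely fixed by the rule of membership and their number is no result.

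Muscle and endothelial miRNAs were less uniform. miR-1, a striated muscle miRNA, had 34 counts in semen and 4827 in bile (14.9 against 2885 CPM, 194 times higher in bile, 139 to 280). miR-206 was listed at 0 in semen and had 172 counts in bile. miR-499-5p, which lies in a myosin gene, was within 2-fold, at 442 counts in semen and 484 in bile (193 against 289 CPM), so that 2 of the 3 striated muscle members were 2-fold higher in bile, beside 37.7% of all members, both of them members through bile alone. Both arms of miR-133a, the usual companion of miR-1, were listed at 0 in both fluids. Of the endothelial miR-126, the 3p arm was within 2-fold, with 366 CPM in semen and 488 CPM in bile, whereas the 5p arm had 12 counts in semen and 148 in bile, 16.8 times higher in bile (9.36 to 33.3). Other miRNAs listed at 0 in semen were miR-218 with 402 bile counts, miR-365-3p with 231, miR-139-5p with 185 and the imprinted miR-127 with 108.

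Blood-cell miRNAs were also higher in bile. miR-451, made in maturing red blood cells, was listed at 0 in semen and had 6896 counts in bile (4121 CPM), at least 942 times higher (lower end 512). miR-363, the other member of the red-cell list, had 40 counts in semen and 143 in bile (4.88 times higher in bile, 3.42 to 7.12). The red-cell miRNAs miR-486 and miR-144 stayed below the minimum for membership, with miR-486 at 12 counts in semen and 66 in bile and miR-144 at 0 and 21. All 4 members of the leukocyte list were 2-fold higher in bile (median log2 ratio -4.42), beside 37.7% of all members, but 3 were with totals without miR-148a-3p or on the authors' normalized scale, where miR-146b lay within 2-fold. miR-451, miR-363, miR-142-5p and miR-155-5p are members through bile alone, so their side was largely fixed by the rule of membership. miR-146a-5p, induced in inflammation, had 134 counts in semen and 1966 in bile (58.6 against 1175 CPM, 20.0 times, 16.8 to 24.0), and its relative miR-146b had 144 and 245 counts (63.0 against 146 CPM). Both miR-142-5p and miR-155-5p were listed at 0 in semen, with 172 and 168 counts in bile. The red-cell names miR-451, miR-144 and miR-486 summed to 5.25 CPM in semen and 4173 CPM in bile, and nearly all of that bile sum was miR-451. The leukocyte names of miR-142, miR-150 and miR-342 summed to 5.69 CPM in semen and 205 CPM in bile. The part of blood in the other differences was not tested.

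**Figure D3:**
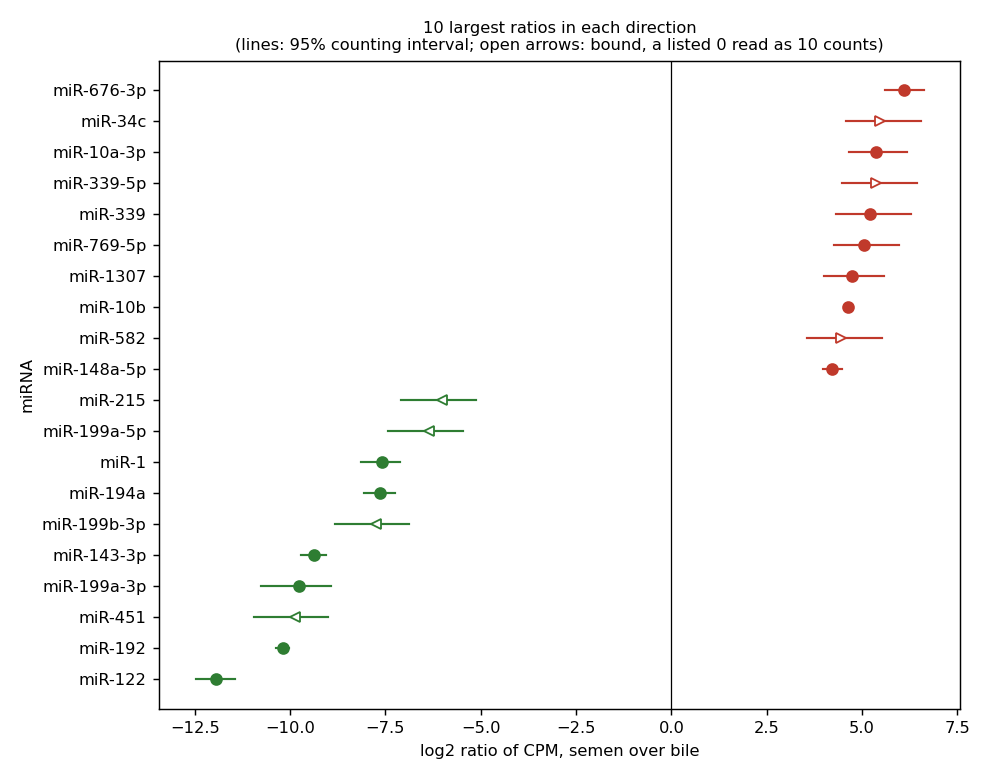
Log2 ratio of CPM, semen over bile (horizontal axis), of the 10 members furthest in each direction. Points are ratios with their 95% counting intervals, and open arrows are bounds with a listed 0 read as 10 counts. Ratios reach -11.93 for miR-122 towards bile, and 6.09 for miR-676-3p towards semen.

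On the semen side the most abundant members were a pair encoded between HOX genes, which pattern the body axis. miR-10a-5p had 121735 counts in semen and 6921 in bile (53277 against 4136 CPM, 12.9 times higher in semen, 12.6 to 13.2), and ranked 3 in semen and 21 in bile. miR-10b had 113734 counts in semen and 3357 in bile (49776 against 2006 CPM, 24.8 times, 24.0 to 25.7). They differ little in sequence, and summed they stood at 10.3% of semen and 0.614% of bile counts, 16.8 times higher in semen (16.4 to 17.1). The minor product of the first hairpin, miR-10a-3p, had 907 counts in semen and 16 in bile (41.5 times, 25.4 to 72.9). All 3 HOX-encoded members were 4-fold higher in semen, beside 23.9% of all members, miR-10a-3p being a member through semen alone. miR-196b-5p, another miRNA of these clusters, had 19 counts in semen and was listed at 0 in bile, under the minimum for membership.

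The largest semen-over-bile ratio was that of miR-676-3p, with 3168 counts in semen and 34 in bile (1386 against 20.3 CPM, 68.2 times, 48.7 to 98.7). miR-34c, which is expressed during meiosis and later in male germ cells, had 604 counts in semen and was listed at 0 in bile, at least 44.2 times higher (lower end 23.9). Its relative miR-34a, a target of p53, had 103 counts in semen and 18 in bile. miR-184 had 128 counts in semen and 22 in bile (4.26 times, 2.70 to 7.04), and the germ-cell and gonadal miR-202-5p had 11 counts in semen and was listed at 0 in bile. The germ-cell list thus added up to 320 CPM in semen and 13.1 CPM in bile over its members miR-34c and miR-184, a small part of the semen library. Both are members through semen alone, so their side was largely fixed by the rule of membership. miR-383, also of that list, was listed at 0 in both libraries. miR-34b and miR-449a, further miRNAs of that lineage, were not analysed here. miR-429, a member of the epithelial miR-200 family, had 1763 counts in semen and 338 in bile (3.82 times, 3.40 to 4.30), and the epithelial miR-205 had 90 counts in semen and 0 listed in bile.

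Further semen-leaning members were of middle abundance. miR-210, the miRNA induced by low oxygen, had 5372 counts in semen and 249 in bile (2351 against 149 CPM, 15.8 times, 13.9 to 18.0). miR-135, chosen after its values were seen, had 6200 and 370 counts (2713 against 221 CPM, 12.3 times, 11.1 to 13.7). Of the cluster around miR-532, which is X-linked in human and mouse, miR-532-5p had 5807 counts in semen and 534 in bile (7.96 times, 7.29 to 8.72), miR-500 had 547 and 36 (11.1 times, 7.94 to 16.1), and miR-362 had 101 counts in semen and was listed at 0 in bile. miR-362 was at least 7.40 times higher in semen, with a lower end of 3.86. It and miR-500 reached the minimum of 100 counts in semen alone, so the number of members on this side is no result.

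The remaining extreme ratios towards semen rest on few bile counts. miR-339-5p had 563 counts in semen and was listed at 0 in bile (at least 41.2 times higher, lower end 22.2), and the name miR-339 had 504 counts in semen and 10 in bile (36.9 times, 19.9 to 77.4). Summed, these names had 1067 counts in semen and 10 in bile (78.1 times, 42.3 to 163). miR-769-5p had 593 and 13 counts (33.4 times, 19.4 to 63.1), and miR-1307 had 547 and 15 (26.7 times, 16.1 to 48.0). miR-582 had 300 counts in semen and was listed at 0 in bile (at least 22.0 times, lower end 11.8). The other members listed at 0 in bile were miR-2483 with 169 semen counts, miR-9-2 with 111 and miR-148b-5p with 104.

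Among the broad families, let-7, which restrains growth and is high in differentiated cells, took a larger share of the bile library. All let-7 names and miR-98 summed to 10.4% of semen and 21.7% of bile counts, 2.09 times higher in bile (2.08 to 2.10). Of 8 members, 3 were 2-fold higher in bile and 0 in semen, beside 37.7% and 33.3% of all members, so the count towards bile was that of the background. With totals without miR-148a-3p or on the authors' normalized scale 2 were 2-fold higher in bile. let-7g had 10777 CPM in semen and 43274 CPM in bile (4.02 times higher in bile, 3.96 to 4.07), let-7f 15399 and 51123 CPM (3.32 times), and let-7i 34412 and 84062 CPM (2.44 times). let-7a, in contrast, had 23456 CPM in semen and 17580 CPM in bile, 1.33 times higher in semen (1.31 to 1.35). The names differ by few bases, and no source used here says how reads matching several were counted, so the split among members is less certain than the sum. The list's median log2 ratio of -0.53 came to -0.0047 with totals without miR-148a-3p.

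Of 8 members of the miR-30 family, 2 were 2-fold higher in semen and 3 in bile, near the 33.3% and 37.7% of all members. The counts were 3 in semen and 1 in bile with totals without miR-148a-3p, and 2 and 1 on the authors' normalized scale. miR-30d had 12121 CPM in semen and 4714 CPM in bile (2.57 times higher in semen, 2.51 to 2.64), while miR-30a-5p had 8632 CPM in semen and 19382 CPM in bile (2.25 times higher in bile, 2.21 to 2.29). Its median log2 ratio of -0.48 turned to 0.04 with totals without miR-148a-3p. miR-99a had 49466 CPM in semen and 25352 CPM in bile and miR-99b 728 and 428 CPM, both within 2-fold except with totals without miR-148a-3p or on the authors' normalized scale, where both were 2-fold higher in semen. Their near relative miR-100 had 349 CPM in semen and 5162 CPM in bile, 14.8 times higher in bile (13.8 to 15.9). Of the miR-125 family, miR-125a was 2.54 times higher in semen (412 against 163 CPM, 2.21 to 2.91) and miR-125b lay within 2-fold (611 against 388 CPM), but not with those same scalings.

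The miR-148 and miR-152 family also held opposite members. miR-148a-3p was 1.65 times higher in semen and miR-148b-3p 1.80 times higher (3120 against 1729 CPM, 1.73 to 1.89), both within 2-fold in CPM but past it with the same scalings, whereas miR-152 had 547 CPM in semen and 2108 CPM in bile, 3.86 times higher in bile (3.62 to 4.12). miR-26a, which ranked 7 in semen and 13 in bile, had 32919 CPM in semen and 12521 CPM in bile (2.63 times higher in semen, 2.59 to 2.67). Of the miR-29 family, which targets collagen mRNAs, miR-29a and miR-29b were 2-fold higher in semen, miR-29a not with TMM (log2 ratio 0.96), and miR-29c was even, at 64.8 CPM in semen and 64.5 CPM in bile. miR-29a had 6678 counts in semen and 2401 in bile (2.04 times, 1.94 to 2.13), and miR-29b had 355 and 108 (2.41 times, 1.93 to 3.01).

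Of 5 members of the miR-23, miR-24 and miR-27 clusters, 3 were 2-fold higher in bile and 0 in semen, beside 37.7% and 33.3% of all members, and 2 were with totals without miR-148a-3p and 4 with TMM. miR-27b-3p had 4450 counts in semen and 19261 in bile (1948 against 11511 CPM, 5.91 times higher in bile, 5.72 to 6.11), miR-27a was 4.31 times higher there (3.98 to 4.67) and miR-24-3p 2.74 times (2.56 to 2.94), while miR-23a and miR-23b lay within 2-fold. Of the miR-181 family, miR-181a (76 counts in semen, 846 in bile) was 15.2 times higher in bile (12.0 to 19.5). miR-181b (16 and 130) was 11.1 times higher in bile (6.58 to 20.0), and miR-181d-5p (269 and 44) was 4.48 times higher in semen (3.25 to 6.31). miR-181a and miR-181b are members through bile alone and miR-181d-5p through semen alone, so their sides were largely fixed by the rule of membership. miR-181c, with 51 counts in semen and 28 in bile, was below the minimum for membership. In the proliferation-linked miR-17-92 cluster and its paralogs, 3 of 6 members were 2-fold higher in bile, such as miR-20a with 151 CPM in semen and 751 CPM in bile, beside 37.7% of all members. Another 2 were 2-fold higher in semen, such as miR-92b-3p with 315 CPM in semen and 62.8 CPM in bile, the 33.3% found over all members. miR-92a, its most abundant member, was within 2-fold at 1283 CPM in semen and 2076 CPM in bile. miR-16 was 3.45 times higher in bile (91.0 CPM in semen against 314 in bile, 2.93 to 4.07). The miR-183 cluster was level as a sum in CPM, at 4472 CPM in semen and 4382 CPM in bile. Like every log2 ratio, that of the sum shifted towards semen by 0.53 with totals without miR-148a-3p and by 0.42 on the authors' normalized scale. miR-183 itself was 2.66 times higher in bile (571 against 1521 CPM, 2.49 to 2.85), but within 2-fold with those same scalings. Of 4 members listed because they or their other arm led the plasma library of this series, miR-378, miR-320 and miR-423-5p lay within 2-fold between semen and bile, and miR-423-3p was 7.28 times higher in semen (6.23 to 8.55).

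**Figure D4:**
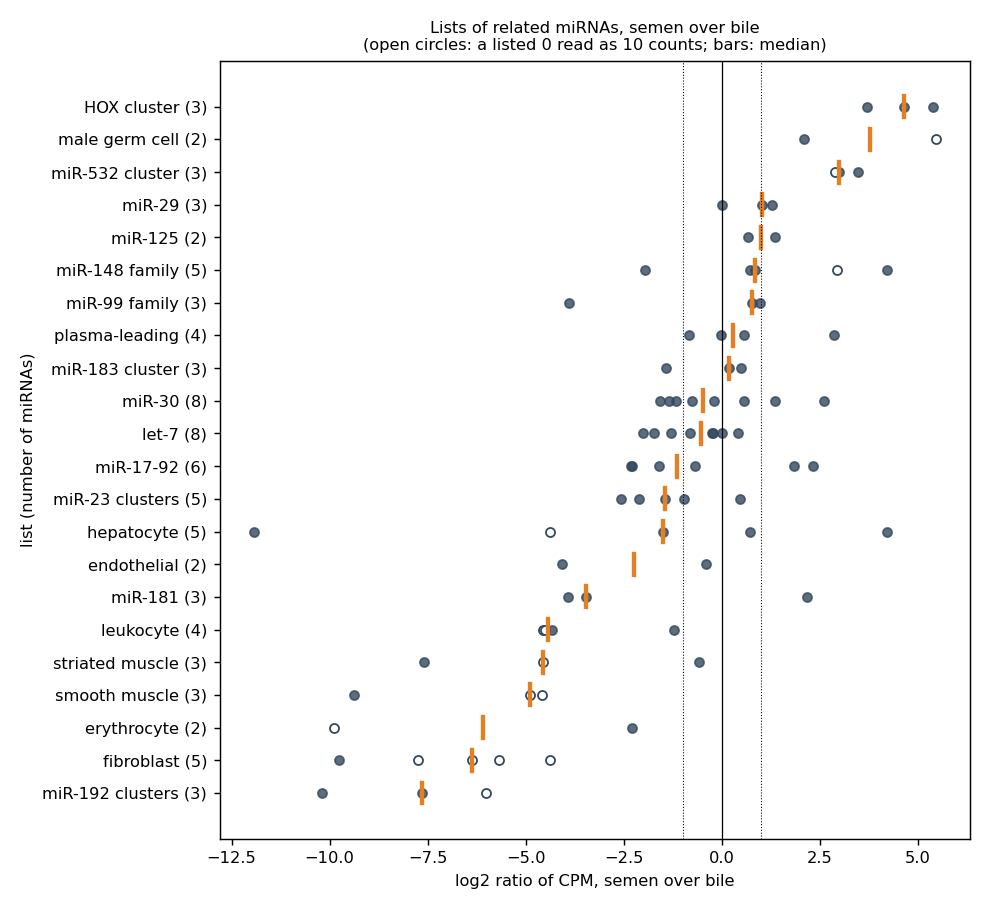
Log2 ratio of CPM, semen over bile (horizontal axis), for lists with at least 2 members. Circles are miRNAs, open circles have a listed 0 read as 10 counts, orange bars are list medians and dotted lines mark 2-fold. Lists of HOX-encoded, germ-cell and miR-532 cluster miRNAs lie to the right, and the fibroblast, smooth muscle and miR-192 lists lie to the left, with let-7 and miR-30 across the middle. Every member of the germ-cell list reached the minimum count in semen alone. The members of the fibroblast and smooth muscle lists reached it in bile alone.

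The products of a single hairpin can be compared between fluids without any scaling of the libraries. Of 42 hairpins with both arms named and at least 1 member, 23 had 100 or more counts from both arms together in each library and the lesser arm listed in at least 1. The lesser arm is the one with the lower CPM over both libraries, and its share of the hairpin's counts was higher in semen for 10 hairpins and higher in bile for 6 by intervals that did not overlap, while 7 were not resolved. The median share was 3.74% in semen and 4.65% in bile, with 5 hairpins at an upper limit in bile because the lesser arm was listed at 0 there.

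Arms of miR-148a differed most towards semen. miR-148a-5p had 3692 counts in semen and 145 in bile, so that it took 0.305% of the hairpin's counts in semen (0.295 to 0.315) and 0.0270% in bile (0.0228 to 0.0318). As CPM it was 18.6 times higher in semen (15.8 to 22.2), against 1.65 times for the 3p arm. The 5p share of miR-148b was 1.44% in semen (1.18 to 1.74) and at most 0.344% in bile (0.633 at the upper end of the interval). For miR-140 the 5p share was 10.1% in semen (8.47 to 12.0) and 1.26% in bile (0.650 to 2.18), for miR-28 it was 20.7% (19.3 to 22.2) in semen and 3.35% in bile (2.76 to 4.03), and for miR-423 the 3p share was 35.3% in semen (33.9 to 36.6) and 9.93% in bile (8.57 to 11.4).

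The leading arm changed for 2 hairpins. miR-374a gave 932 counts of the 5p and 1033 of the 3p arm in semen, a 3p share of 52.6% (50.3 to 54.8), but 688 and 131 counts in bile, a 3p share of 16.0% (13.5 to 18.7). miR-361 gave 201 counts of the 5p and 371 of the 3p arm in semen, a 3p share of 64.9% (60.8 to 68.8), and 178 and 53 counts in bile, a 3p share of 22.9% (17.7 to 28.9). In both cases the 5p arm was near even between the fluids, and the 3p arm carried the difference.

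Arms leaning towards bile included miR-30c, whose 3p share was 3.78% in semen (3.21 to 4.41) and 38.0% in bile (34.5 to 41.6). Its 5p arm had 3848 counts in semen and 461 in bile and its 3p arm 151 and 283, so the arms moved in opposite directions. The 5p share of miR-126 was 1.41% in semen (0.732 to 2.46) and 15.3% in bile (13.1 to 17.8), that of miR-22 was 3.74% in semen (3.34 to 4.18) and 9.25% in bile (8.27 to 10.3), and the 3p share of miR-30e was 33.1% in semen (31.8 to 34.4) and 45.7% in bile (44.0 to 47.5). miR-151 was level, with a 5p share of 1.29% in semen and 1.31% in bile.

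**Figure D5:**
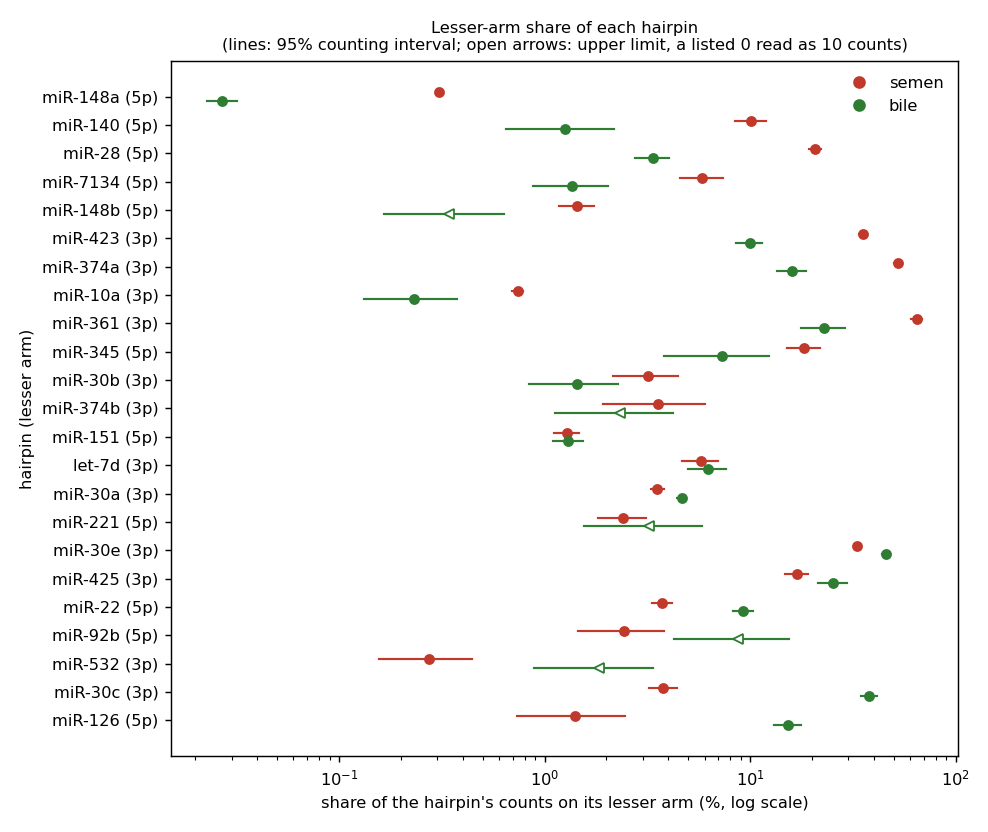
Share of a hairpin's counts on its lesser arm (%, horizontal log axis) in semen (red, upper point) and bile (green, lower point) for 23 hairpins, with 95% counting intervals; open arrows are upper limits where the arm is listed at 0. Hairpins at the top, such as miR-148a, have a larger lesser-arm share in semen, and miR-30c and miR-126 at the bottom have a larger one in bile.

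Hairpins that lie close together are often transcribed as 1 precursor. In the RefSeq gene table of another assembly, Sscrofa11.1, 134 of the 138 members matched a hairpin, and 110 members that matched a single one were used here. They formed 12 groups of neighbours within 10 kb, holding 29 members. In 7 of the 12 all members lay on the same side, and the median range within a group was 1.75 on the log2 scale. Over all members 66 were higher in semen and 72 in bile, and how often unrelated members share a side was not computed. The count of 7 also depends on scaling. let-7e (-0.25) and miR-222 (-0.12) lie within the shift of 0.53 towards semen found with totals without miR-148a-3p. In the other direction, let-7c (0.0038) came to -0.066 with TMM while its neighbour miR-99a stayed at 0.89, so that group parted. Neighbours stayed together in miR-192 and miR-194a (log2 ratios -10.19 and -7.64), in miR-143 and miR-145, and in miR-362, miR-500 and miR-532-5p (2.89, 3.48 and 2.99). Of these, miR-194a, miR-143-3p and the arms of miR-145 reached the minimum count in bile alone, and miR-362 and miR-500 in semen alone. Their side was largely fixed by the rule of membership, so these groups cannot show whether neighbours go together. The count of 7 includes them and is no result about neighbours. Neighbours parted in miR-30d (1.36) and miR-30b-5p (-0.76), and in miR-23b (0.47) and miR-27b-3p (-2.56). miR-221-3p (2.46) was higher in semen, while miR-222 was near even (-0.12, interval -0.29 to 0.05).

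The members 4-fold higher in semen or in bile were also set beside the other fluids of the series. Of the 33 members 4-fold higher in semen than in bile, 19 also had a higher CPM in semen than in serum and plasma, among them miR-676-3p, miR-34c, miR-10a-5p, miR-10b, miR-135 and miR-210. Serum exceeded semen for 12 of the 33 and plasma for 9, so miR-769-5p, miR-1307 and miR-339 set semen apart from bile but not from blood. Of the 33 members 4-fold higher in bile, 15 had a higher CPM in bile than in serum and plasma, including miR-122, miR-192, miR-194a, miR-143-3p, miR-1 and both arms of miR-199a. Serum exceeded bile for 17 of the 33, including miR-451, miR-215, miR-142-5p, miR-155-5p and miR-146a-5p, and plasma for 6. In plasma miR-378, miR-320 and miR-423-5p had 413974, 256353 and 168632 CPM. This leaves less of the scale to the other miRNAs there and lowers the plasma counts of 9 and 6. How often members at large had a higher CPM in semen or bile than in serum and plasma was not computed. The sets of 33 were also chosen for a high level in semen or in bile. Their counts describe these sets and are no result about what either side shares with blood. Urine had 26522 miRNA counts, and 10 counts there already make 377 CPM, so it was left out of these counts. It still exceeded semen for 6 of the 33 members on the semen side, among them miR-10b with 3184 counts (120051 CPM, against 49776 in semen). miR-10a-5p had 1229 counts in urine (46339 CPM, against 53277 in semen). Urine exceeded bile for 7 of the 33 on the bile side, including miR-1 with 174 counts (6561 against 2885 CPM).

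The minimum of 100 counts set who was a member. Just inside it were miR-362 with 101 semen counts and 0 listed in bile, miR-34a with 103 and 18, miR-148b-5p with 104 and 0, and miR-9 with 106 and 28. Just outside it were miR-296-3p with 97 counts in semen and 12 in bile, miR-345-5p with 96 and 12, miR-150 with 0 and 96, and miR-378b-3p with 42 and 93. A further 203 names were listed at 0 in both libraries, and 70 were above 0 in at least 1 of them but under the minimum, 22 in semen alone, 18 in bile alone and 30 in both.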

How the data were processed

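Small RNA of exosomes from 5 pig body fluids was sequenced, 1 library per fluid, and the semen and bile libraries are compared here. For each library the authors deposited raw read counts per mature miRNA and a normalized value that the header does not define further. The submitters' processing notes name bcl2fastq 2.17 and genome build Sscrofa 10.2. Which aligner and annotation were used, and what was done with ambiguous reads, was not given in the sources used here. Per the labels, there were 2 Illumina instruments, not assigned to libraries. The deposited normalized values behave as RPM of a library total of 10801967 reads in semen and 10555126 in bile, so miRNA counts were 21.2% and 15.9% of these totals.

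Counts were divided by the summed miRNA counts and scaled to 1000000. Ratios carry exact conditional binomial 95% intervals and shares exact Clopper-Pearson 95% intervals (SciPy 1.17.1, checked on simulated counts), which cover counting error only since no molecular identifiers are named. A listed 0 was read as 10 counts. No test was made, as each group is 1 library. Fixed limits of 2-fold and 4-fold were used. edgeR 4.0.16 (TMM) and DESeq2 1.42.0 gave other scalings and no p-values.

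Named miRNAs were the 10 most abundant of each library, the 10 largest ratios each way, the 5 most even with at least 1000 counts, the 2 most abundant of each of 26 lists in each library, those listed at 0 in 1 library and those nearest the minimum of 100. Arms and neighbours were named after their values were seen. The members, lists and rules were chosen with earlier results of these data known.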

Additional observations from a re-analysis of the deposited data

How the results depend on the processing

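The counts of 46 and 52 members 2-fold higher in semen and in bile, and of 33 and 33 at 4-fold, stayed within 1.5 times under TMM, DESeq2 size factors, totals without miR-148a-3p, the authors' RPM, a minimum of 10 counts, a listed 0 read as 3 counts, semen thinned to the depth of bile and summed arms. A minimum of 1000 counts left 69 members, of which 18 were 2-fold higher in semen and 25 in bile, and 11 and 14 were 4-fold higher. Without members listed at 0, which are high in the other library by construction, 26 were 4-fold higher in semen and 17 in bile, in place of 33 and 33. The median log2 ratio of -0.13 came to 0.39 with totals without miR-148a-3p, 0.28 on the authors' RPM, -0.015 at 1000 counts, 0.0051 without members listed at 0 and -0.25 after thinning, where 131 members were left. Of the 88 miRNAs named by rule, none that differed 2-fold changed direction under any of these alternatives. Outside the 88 some did when arms were summed. miR-28-5p and miR-140-5p were higher in semen, but their hairpins were higher in bile (1403 against 1925 CPM and 514 against 571 CPM, semen first). miR-30c-3p was higher in bile, but its hairpin had 1750 CPM in semen and 445 in bile. No paired analysis was possible because each fluid has 1 library, and no library could be left out for the same reason. Depth limits ratios against a listed 0, which are bounds.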
